A study of Mus musculus with 9 samples.

Results

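The semaphorin guidance system was described in mouse cells through 31 protein-coding genes, 20 semaphorins (Sema3 to Sema7), 9 plexins and 2 neuropilins. They were chosen by symbol among the 37224 genes of the deposited count table, and every protein-coding gene with such a symbol was kept. Left out were 3 antisense or noncoding genes with a matching name, with at most 4 counts in a library. RNA had been sequenced from 3 groups of 3 samples, all of strain C57BL/6. iGABA cells were fibroblasts after 14 days in vitro of reprogramming toward GABAergic interneurons, the first 2 of them in fibroblast medium and the rest in neuronal medium. They were sorted for GFP before RNA extraction, and the labels do not list the transcription factors that were delivered to them. GAD67 cells were primary interneurons of the cortex at E18.5, also sorted for GFP, which the series design ties to GAD67. MEF cells were unsorted primary embryonic fibroblasts of E13.5 embryos at passage P0, the same kind of cell from which iGABA cells were made. The MEF labels mention a later move to neuronal inducing medium and leave unclear whether RNA was taken before it. Nothing in the labels says whether replicates were separate embryos, litters or cultures, and p-values therefore measure a spread among libraries that may be technical.

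Semaphorins are guidance cues that steer growing axons and migrating cells, mostly by repulsion. Class 3 members are secreted, classes 4, 5 and 6 span the membrane, and Sema7a is held on the cell surface by a lipid anchor. Plexins are their signalling receptors, with a cytoplasmic domain that acts on small GTPases, and neuropilins are co-receptors that most class 3 ligands need to act through plexins of the A group. In the embryonic forebrain, interneurons born in the ventral forebrain carry neuropilins and plexins and are steered around the striatum toward the cortex by secreted class 3 semaphorins.

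Library totals ran from 27501521 to 38975523 counts. Levels of a gene are given as normalised CPM, that is counts as a share of the library, scaled by the trimmed mean of M values (TMM), and levels of different genes are set beside each other only as TPM, which divide counts by gene length. The labels were checked against marker genes. Gad1 encodes GAD67 and is 1 of the 7 interneuron markers. Their sum is therefore no independent check of cells sorted for GFP tied to GAD67. Nor do the labels say whether other markers of that list were among the factors delivered to iGABA cells. The 7 interneuron markers summed to 671 to 684 CPM in iGABA, 4032 to 4216 in GAD67 and 8.39 to 9.63 in MEF libraries, and the 8 fibroblast markers to 707 to 998 CPM in iGABA, 124 to 132 in GAD67 and 75874 to 84283 in MEF libraries. Single markers departed from these sums. The fibroblast markers Pdgfra and Thy1 averaged 152 ± 11.8 and 164 ± 6.34 CPM in iGABA, 2.81 ± 1.02 and 3.27 ± 0.663 in GAD67, and 277 ± 4.31 and 409 ± 18.6 in MEF libraries (SD, n = 3). Gad1, the gene of GAD67, averaged 405 ± 8.21 CPM in iGABA, 745 ± 25.2 in GAD67 and 0.544 ± 0.0713 in MEF libraries, while Gad2 and Slc32a1, for GABA synthesis and its loading into vesicles, averaged 9.45 ± 1.05 and 2.83 ± 0.433 in iGABA against 514 ± 34.4 and 186 ± 3.50 in GAD67 libraries. The 6 general neuron markers summed to 661 to 678 CPM in iGABA, 7054 to 7497 in GAD67 and 105 to 109 in MEF libraries, and 1 of them, Stmn2, averaged 23.3 ± 3.13 in iGABA, 546 ± 22.7 in GAD67 and 33.5 ± 0.758 in MEF libraries. MEF cultures also held macrophage RNA, with 8 macrophage and microglia markers at 406 to 441 CPM in sum, against 0.375 to 0.668 in iGABA libraries, where 2 of the 8 had no count, and 1.76 to 1.95 in GAD67 libraries. Endothelial markers (7 genes) summed to 2.36 to 4.97 CPM in iGABA, 14.0 to 46.2 in GAD67 and 14.6 to 16.7 in MEF libraries, and Cldn5, which defines that cell type in brain, had no count in MEF libraries. Most of the sum in iGABA and MEF libraries was Kdr, at means of 2.81 and 11.8 CPM, against 8.35 in GAD67 libraries. Pecam1 and Cdh5 averaged 3.71 and 3.35 CPM in GAD67 against 0.243 and 0.321 in MEF libraries, while Tek averaged 1.63 in GAD67 and 1.82 in MEF libraries. Skeletal muscle markers (6 genes) summed to at most 1.44 CPM in iGABA and 0.48 in GAD67 libraries, against 85.3 to 90.9 in MEF libraries. Markers of glutamatergic cortical neurons (7 genes) summed to 4.45 to 4.60 CPM in iGABA, 40.5 to 66.1 in GAD67 and 6.25 to 6.85 in MEF libraries, and those of red blood cells (5 genes) to at most 0.0495 in iGABA, 18.7 to 48.1 in GAD67 and at most 0.0658 in MEF libraries. The part of such cells in the differences of members was not tested. In such bulk samples fewer cells of a type and less RNA per cell cannot be told apart. Exons of 3 members overlap another gene of the table, by 110 bases for Plxna4, 80 for Nrp1 and 210 for Plxnb1, at most 2.35% of the member's length, and their values are uncertain to that extent.

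All 31 genes passed the low-count filter, so every member was tested among 18085 genes with edgeR's quasi-likelihood test, and a gene was called at an adjusted p under 0.05. Against MEF cells, 24 of the 31 (77.4%) were called in iGABA cells, 13 higher and 11 lower, where 81.9% of all tested genes were called, 42.1% higher and 39.7% lower. In GAD67 cells 30 of 31 (96.8%) were called against MEF, 15 higher and 15 lower, where 86.9% of all tested genes were called, 43.1% higher and 43.8% lower. Between iGABA and GAD67 cells 26 (83.9%) were called, 11 higher and 15 lower in iGABA, against 80.6% of all tested genes, 41.3% higher and 39.3% lower. The libraries of the groups did not overlap for 26 members in iGABA against MEF (84.9% of all tested genes), 29 in GAD67 against MEF (87.0%) and 27 in iGABA against GAD67 (82.3%). The groups were so far apart that a call alone says little, and the sizes say more. Calls of at least 4-fold numbered 13 of 31 (41.9%) for iGABA against MEF, where 27.1% of all tested genes passed that size, 19 (61.3%) for GAD67 against MEF, where 36.8% did, and 8 (25.8%) for iGABA against GAD67, where 26.1% did. Of the 31 members, 6 were at least 4-fold lower in iGABA than in GAD67 cells, beside 1794 of the 18085 tested genes (9.92%). At least 4-fold higher were 2 of the 31, beside 2934 of the 18085 (16.2%). The median absolute log2 fold change was 1.41 over the members and 0.97 over all tested genes for iGABA against MEF, 2.86 and 1.39 for GAD67 against MEF, and 1.20 and 0.94 for iGABA against GAD67. All tested genes are not matched to the members for level or length. By mean level, 7 members (22.6%) were highest in iGABA, 12 (38.7%) in GAD67 and 12 (38.7%) in MEF cells, close to the 26.4%, 36.7% and 36.8% over all tested genes. The 2 comparisons with MEF share the MEF libraries.

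**Figure D1:**
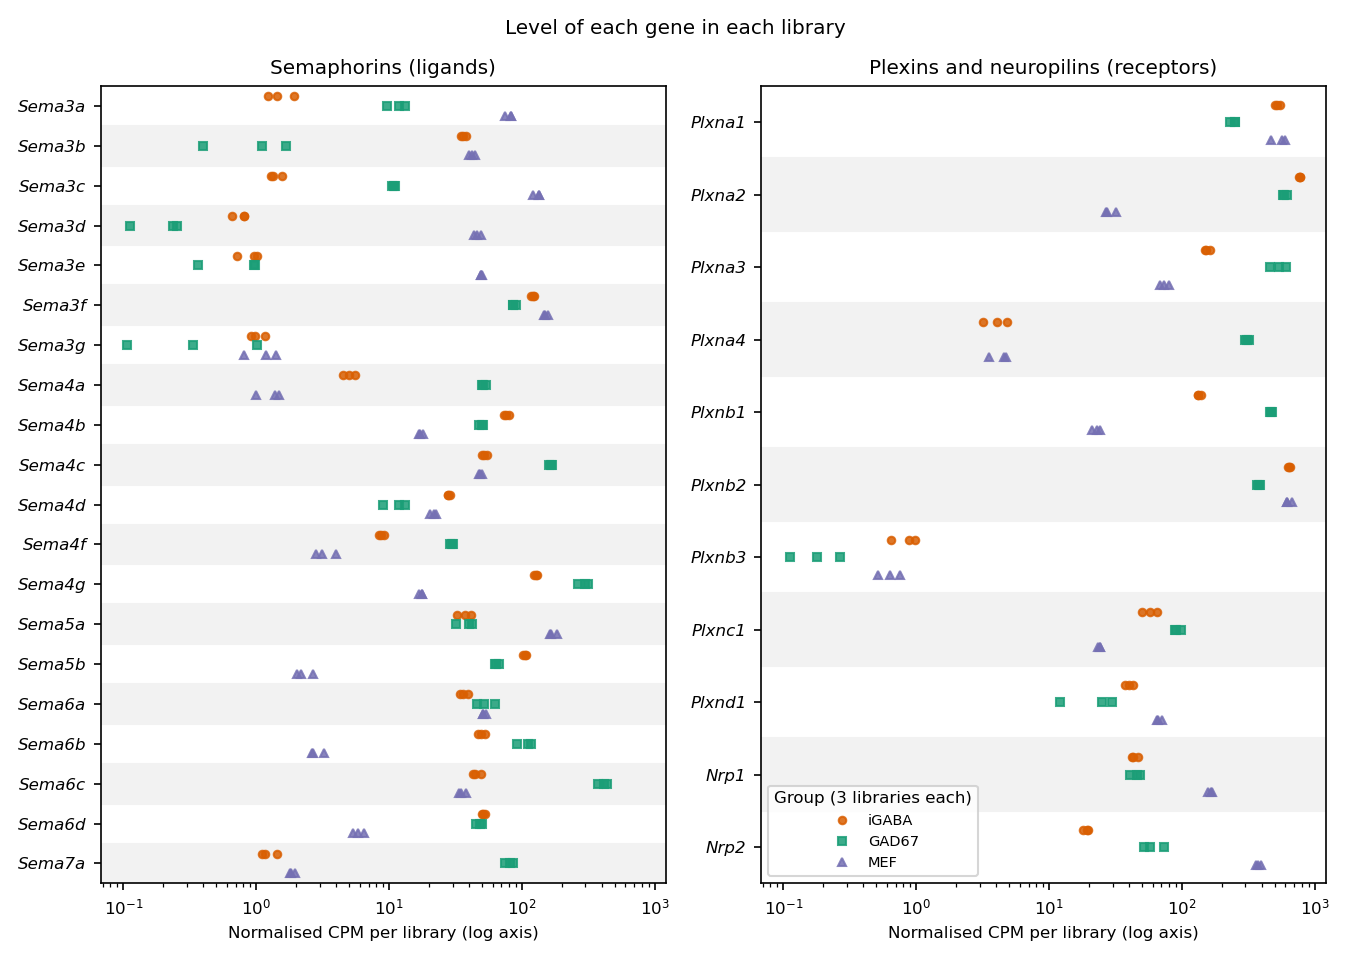
Normalised CPM of each semaphorin, plexin and neuropilin gene in each of the 9 libraries on a log axis, with iGABA as orange circles, GAD67 as green squares and MEF as purple triangles. Sema3a, Sema3c, Sema3d and Sema3e stand near or above 44 CPM in MEF and under 2 CPM in iGABA libraries, while Plxna2 stands between 762 and 775 CPM in iGABA and between 26.7 and 32.1 CPM in MEF libraries.

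Scaling mattered for small differences. With library size alone in place of TMM, the median over all tested genes moved on the log2 scale by 0.42 for iGABA against MEF, 0.22 for GAD67 against MEF and 0.19 for iGABA against GAD67. The split of members for iGABA against MEF became 17 higher and 7 lower, beside 13 and 11 with TMM, and the split of all genes 9941 higher and 5283 lower, beside 7618 and 7188. Differences below about that size therefore hold relative to TMM scaling.

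The start regions of the members were compared in RefSeq sequence of the GRCm38.p6 build. Of the 31 members, 20 were used, each with a RefSeq start within 50 bases of the gene start in the deposited table, and the others are not used here. Distance was not the only criterion, since Sema6a was left out by its place in the genome, whatever its distance. The 250 bases upstream are shown for the 2 members of these 20 with the largest rise and the 2 with the largest fall in iGABA against MEF cells. Capitals mark matches to GGGCGG or its reverse complement CCGCCC, the GC box of many housekeeping and developmental promoters. Strands and coordinates are Plxna2 chr1:194619579-194619828 on the plus strand, Sema6b chr17:56140344-56140593 on the minus strand, Sema3d chr5:12382916-12383165 on the plus strand and Sema3e chr5:14025026-14025275 on the plus strand.
Plxna2: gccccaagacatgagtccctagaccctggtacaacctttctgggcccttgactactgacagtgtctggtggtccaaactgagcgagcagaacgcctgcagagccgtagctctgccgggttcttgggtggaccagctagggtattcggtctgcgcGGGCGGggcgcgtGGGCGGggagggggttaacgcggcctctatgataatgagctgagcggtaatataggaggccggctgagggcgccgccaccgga
Sema6b: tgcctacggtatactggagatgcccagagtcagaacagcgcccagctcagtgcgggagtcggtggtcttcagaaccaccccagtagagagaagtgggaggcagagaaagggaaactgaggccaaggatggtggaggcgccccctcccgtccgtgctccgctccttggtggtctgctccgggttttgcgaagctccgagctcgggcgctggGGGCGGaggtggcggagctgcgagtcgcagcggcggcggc
Sema3d: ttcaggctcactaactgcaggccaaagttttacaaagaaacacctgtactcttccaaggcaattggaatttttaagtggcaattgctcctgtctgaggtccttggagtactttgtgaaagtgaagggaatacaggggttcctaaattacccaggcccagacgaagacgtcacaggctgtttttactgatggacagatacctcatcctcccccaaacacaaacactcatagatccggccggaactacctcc
Sema3e: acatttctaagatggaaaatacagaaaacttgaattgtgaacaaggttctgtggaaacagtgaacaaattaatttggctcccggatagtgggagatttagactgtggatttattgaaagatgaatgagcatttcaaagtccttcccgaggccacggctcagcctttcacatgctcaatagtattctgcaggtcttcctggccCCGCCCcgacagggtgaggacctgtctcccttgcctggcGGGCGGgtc
Base composition differed between the windows. G and C made up 62.8% of the Plxna2 window and 66.0% of the Sema6b window, both of which rose, against 46.8% for Sema3d and 48.0% for Sema3e, which fell, and the Sema3a window had 40.8%. The median over the 32851 windows of all genes was 52.4%. Unlike those of the members, these windows were not picked by distance to the gene start, and they are not matched for base composition. Nrp2 and Sema5a, which fell as well, had 72.4% and 72%, so a low share was not common to the members that fell. A GC box stood in 16 of the 20 windows, against 32.7% of all windows. Among the 5 that rose at least 4-fold it stood in 5, and among the 5 that fell at least 4-fold in 3. Other short motifs were searched on both strands, and no 2 matches overlapped in the windows shown. The E-box CAGCTG, of the kind bound by basic helix-loop-helix factors, stood in 3 of the 20 windows and in 13.0% of all windows. AACAAT, a core bound by SOX factors, stood in 1 and in 9.42%, and TAATTA, a core bound by homeodomain factors, in 0 and in 4.84%. None of these 3 stood in the windows of the 10 members that changed at least 4-fold. A match is a description of these letters in this window only.

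Among the secreted class 3 ligands, 4 of 7 were more than 50-fold lower in iGABA than in MEF cells while Sema3b, Sema3f and Sema3g lay within 2-fold of their MEF level. Of the 7, 5 fell in iGABA cells and 2 were not called, and all 7 were lower in GAD67 than in MEF cells. Among all tested genes 39.7% were lower in iGABA and 43.8% in GAD67 than in MEF cells. Sema3a, the repellent cue through which neuropilin and plexins A were first understood, had 1.43, 1.91 and 1.22 normalised CPM in iGABA, 11.8, 13.3 and 9.72 in GAD67 and 74.7, 82.1 and 82.3 in MEF libraries. No library of one group reached the range of another, and iGABA cells were lowest. Its log2 fold change was -5.69 ± 0.144 (SE; adjusted p = 8.07e-13) for iGABA against MEF in edgeR, and -2.91 ± 0.153 (SE; adjusted p = 1.14e-09) for iGABA against GAD67. Sema3c, a ligand known for guiding neural crest cells to the heart outflow tract, stood at 1.29, 1.55 and 1.34 normalised CPM in iGABA, 10.9, 10.4 and 11.1 in GAD67 and 121, 134 and 134 in MEF libraries. Again the MEF libraries were highest and the iGABA libraries lowest, with edgeR log2 fold changes of -6.53 ± 0.0892 (SE; adjusted p = 5.16e-15) for iGABA against MEF and -3.59 ± 0.0694 (SE; adjusted p = 2.96e-14) for GAD67 against MEF.

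Sema3d and Sema3e were scarce in both iGABA and GAD67 cells. Sema3d, known for guiding axons and endothelial cells, had 0.816, 0.812 and 0.657 normalised CPM in iGABA, 0.255, 0.239 and 0.113 in GAD67 and 45.7, 49.4 and 43.8 in MEF libraries, the GAD67 values resting on 4 to 10 counts. It fell in iGABA cells with a log2 fold change of -5.90 ± 0.134 (SE; adjusted p = 2.99e-13) in edgeR and was lower in GAD67 than in MEF cells with -7.80 ± 0.162 (SE; adjusted p = 5.79e-14). Sema3e, which can bind Plxnd1 without a neuropilin, had 1.01, 0.956 and 0.719 normalised CPM in iGABA, 0.971, 0.981 and 0.367 in GAD67 and 49.4, 49.7 and 49.2 in MEF libraries. Its iGABA and GAD67 libraries overlapped, and both groups were about 50-fold or more below MEF, at edgeR log2 fold changes of -5.76 ± 0.184 (SE; adjusted p = 6.95e-12) and -5.98 ± 0.188 (SE; adjusted p = 3.24e-12).

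Sema3f and Sema3b behaved otherwise. Sema3f, the main neuropilin-2 ligand and a repellent of cortical interneurons in the striatum, had 120.4, 117 and 124 normalised CPM in iGABA, 89.9, 85.1 and 85.4 in GAD67 and 158, 149.6 and 145 in MEF libraries. The 3 groups did not overlap, but they lay within 2-fold of each other. Its log2 fold change for iGABA against MEF was -0.33 ± 0.0515 (SE; adjusted p = 6.11e-05) in edgeR, and with library size alone the sign turned, at 0.0897 (edgeR, adjusted p = 0.148). Sema3b, a ligand studied as a tumour suppressor, had 36.0, 37.7 and 34.6 normalised CPM in iGABA, 1.098, 1.67 and 0.395 in GAD67 and 40.2, 44.4 and 42.0 in MEF libraries. It was not called for iGABA against MEF (-0.23, 95% interval -0.55 to 0.10, edgeR adjusted p = 0.182), a value that ranged from -0.26 to -0.19 when single libraries were left out and was called without GAD67 replicate 8 (adjusted p = 0.0462) or 9 (adjusted p = 0.00978) and with only the 6 libraries compared (-0.21, adjusted p = 0.00356), and that was 0.19 with library size alone. It stood 33.8-fold higher in iGABA than in GAD67 cells, a log2 fold change of 5.08 ± 0.219 (SE; adjusted p = 1.44e-10) in edgeR. GAD67 replicate 9 held the lowest Sema3b level, 0.395 CPM, and without it the log2 fold change for iGABA against GAD67 was 4.70. Sema3g, a vessel ligand, was scarce everywhere, at 4 to 47 counts, with 0.915, 0.979 and 1.16 normalised CPM in iGABA, 0.332, 0.106 and 1.02 in GAD67 and 0.806, 1.18 and 1.42 in MEF libraries. Its log2 fold change for GAD67 against MEF was -1.26 ± 0.504 (SE; adjusted p = 0.0322) in edgeR. That call was lost without GAD67 replicate 7 or 8 or without MEF replicate 2 or 3 (edgeR adjusted p of 0.0728 to 0.123), with library size alone (0.0743) and with only the 6 libraries compared (0.0678). Without GAD67 replicate 9, which also held the most endothelial RNA (46.2 CPM in sum, against 14.0 and 25.9), the value was -2.35 (edgeR adjusted p = 9.79e-05). For iGABA against GAD67 it was not called, at 1.08 ± 0.4996 (SE; adjusted p = 0.0625) in edgeR, but it passed without the same replicate (2.16, adjusted p = 0.000238), with library size alone (1.28, adjusted p = 0.0345) and with no low-count filter (1.08, adjusted p = 0.0339). The part of endothelial RNA in these values was not tested.

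The 4 class 3 ligands that fell most lie together. Sema3d, Sema3a, Sema3e and Sema3c are all on the plus strand of chromosome 5, within 5.35 Mb of the mm10 build (12383166 to 17730268). Of the 30 genes of the table inside that interval only 7 had enough reads to be tested, these 4 and Pclo, Cacna2d1 and Hgf. Hgf, the ligand of the Met receptor, stood at 0.122 CPM in iGABA, 0.125 in GAD67 and 26.8 in MEF cells, a log2 fold change of -7.83 for iGABA against MEF (edgeR, adjusted p = 1.78e-12). Cacna2d1, a calcium channel subunit, fell with -1.63 (edgeR, adjusted p = 3.88e-11). Pclo, a scaffold of the presynaptic active zone, rose with 5.73 (edgeR, adjusted p = 9.25e-11). The interval therefore held 1 gene that rose among those that fell. Sema3b and Sema3f lie on the minus strand of chromosome 9 within 0.113 Mb (107597674 to 107710475). Between them lie Gnai2, with a log2 fold change of -0.42 for iGABA against MEF (edgeR, adjusted p = 1.56e-05), and Slc38a3, with 1.59 (edgeR, adjusted p = 2.53e-06).

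**Figure D2:**
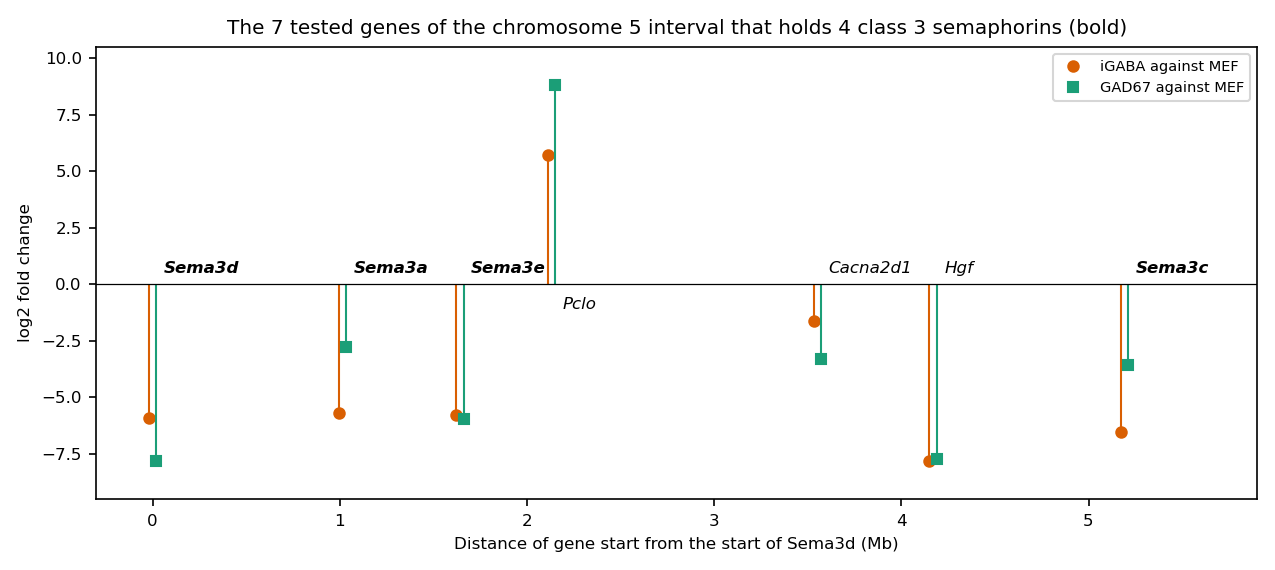
Log2 fold change against MEF cells (y axis) of the 7 tested genes of the chromosome 5 interval by distance of the gene start from that of Sema3d in Mb (x axis), for iGABA as orange circles and GAD67 as green squares, with semaphorins in bold. All 4 semaphorins and Hgf lie below -2.7 in both comparisons, while Pclo lies above 5.

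Most class 4 ligands, which span the membrane, moved the other way. Of the 6, 5 rose and 1 was not called in iGABA against MEF cells. In GAD67 against MEF cells 5 were higher and 1, Sema4d, lower. The shares of all tested genes that were higher were 42.1% for iGABA and 43.1% for GAD67. Only 2 of the 6 rose at least 4-fold in iGABA cells. Sema4g, expressed in the developing nervous system, had 123, 127 and 129 normalised CPM in iGABA, 297, 314 and 262 in GAD67 and 17.6, 17.7 and 16.8 in MEF libraries. The order was the same in every library, GAD67 above iGABA above MEF, and the log2 fold change was 2.87 ± 0.0723 (SE; adjusted p = 7.69e-13) for iGABA against MEF and -1.20 ± 0.0643 (SE; adjusted p = 1.29e-09) for iGABA against GAD67 in edgeR. Sema4b, which binds postsynaptic scaffolds, had 76.0, 79.98 and 73.5 normalised CPM in iGABA, 50.04, 51.0 and 47.2 in GAD67 and 17.1, 16.8 and 17.9 in MEF libraries. Here iGABA was highest, 2.15 ± 0.0613 above MEF and 0.63 ± 0.0565 above GAD67 cells on the log2 scale (SE; edgeR adjusted p = 2.36e-12 and 2.69e-07). Sema4f, a membrane ligand found at synapses, had 9.18, 8.74 and 8.41 normalised CPM in iGABA, 28.8, 30.3 and 29.5 in GAD67 and 3.99, 3.13 and 2.84 in MEF libraries, with iGABA in between and edgeR log2 fold changes of 1.41 ± 0.119 (SE; adjusted p = 1.37e-07) for iGABA against MEF and -1.75 ± 0.101 (SE; adjusted p = 3.05e-09) for iGABA against GAD67.

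Sema4a, a ligand of retinal and immune cells, rose in iGABA cells but stayed 10.2-fold below GAD67 cells. It had 4.998, 5.52 and 4.50 normalised CPM in iGABA, 53.5, 50.1 and 50.9 in GAD67 and 0.989, 1.38 and 1.48 in MEF libraries, and edgeR gave log2 fold changes of 1.95 ± 0.142 (SE; adjusted p = 3.02e-08) for iGABA against MEF and 5.31 ± 0.125 (SE; adjusted p = 1.84e-13) for GAD67 against MEF. Sema4c, the main ligand of Plxnb2, had 52.2, 49.9 and 54.5 normalised CPM in iGABA, 165, 169 and 161 in GAD67 and 49.9, 48.0 and 47.7 in MEF libraries. The iGABA and MEF libraries stood side by side and the GAD67 libraries about 3-fold higher. For iGABA against MEF the log2 fold change was 0.10 (95% interval -0.0110 to 0.22, edgeR adjusted p = 0.0858), which passed without iGABA replicate 5 (adjusted p = 0.0493) and was 0.52 with library size alone (adjusted p = 2.95e-06). Sema4d, the ligand of Plxnb1 and also a product of immune cells, had 27.9, 28.9 and 27.6 normalised CPM in iGABA, 11.9, 13.3 and 8.95 in GAD67 and 20.2, 21.9 and 22.7 in MEF libraries. It was highest in iGABA cells, with edgeR log2 fold changes of 0.38 ± 0.112 (SE; adjusted p = 0.00734) against MEF and 1.31 ± 0.116 (SE; adjusted p = 2.43e-07) against GAD67. Macrophage and microglia markers were almost absent from both iGABA and GAD67 libraries, and the part of macrophage RNA in Sema4d was not tested.

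The class 5 ligands moved in opposite directions. Sema5a, a cue with both attractive and repulsive action, had 37.0, 32.2 and 41.6 normalised CPM in iGABA, 39.7, 42.3 and 31.7 in GAD67 and 165, 185 and 161 in MEF libraries. It fell in iGABA cells with a log2 fold change of -2.21 ± 0.112 (SE; adjusted p = 7.30e-10) in edgeR and was not called between iGABA and GAD67 cells, whose libraries overlapped (-0.0404, 95% interval -0.28 to 0.20, edgeR adjusted p = 0.749). Sema5b, its close relative, had 105, 106 and 102 normalised CPM in iGABA, 66.6, 63.0 and 63.7 in GAD67 and 2.01, 2.70 and 2.17 in MEF libraries. This was the largest rise of any member in iGABA cells, 5.50 ± 0.0865 (SE; adjusted p = 1.39e-14) in edgeR, and the level there was higher than in GAD67 cells by 0.69 ± 0.0609 (SE; adjusted p = 2.15e-07) on the log2 scale.

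Class 6 ligands can also act as receptors on the cell that carries them. They rose in 3 of 4 cases in iGABA and in 3 of 4 in GAD67 against MEF cells. Over all tested genes 42.1% and 43.1% were higher in these comparisons. Sema6b, a partner of plexins A in the hippocampus, had 46.6, 52.8 and 49.0 normalised CPM in iGABA, 111, 118 and 91.6 in GAD67 and 2.64, 3.22 and 2.66 in MEF libraries, with a log2 fold change of 4.12 ± 0.122 (SE; adjusted p = 3.34e-12) for iGABA against MEF in edgeR. Sema6d, a ligand of Plxna1, had 51.3, 50.05 and 52.8 normalised CPM in iGABA, 48.4, 49.98 and 45.0 in GAD67 and 5.79, 5.40 and 6.46 in MEF libraries. Its iGABA and GAD67 libraries lay close together, at 0.10 (95% interval -0.0382 to 0.25, edgeR adjusted p = 0.160), and the value passed with library size alone (0.30, adjusted p = 0.00130). Sema6c, another membrane ligand of the class, had 42.7, 48.9 and 44.5 normalised CPM in iGABA, 413, 376 and 436 in GAD67 and 37.8, 33.6 and 34.8 in MEF libraries. Its rise in iGABA cells was small, 0.36 ± 0.0749 (SE; adjusted p = 0.000647) in edgeR, and GAD67 cells stood 9.00-fold above iGABA cells, with -3.17 ± 0.0765 (SE; adjusted p = 4.90e-13) for iGABA against GAD67 in edgeR. Sema6a, a ligand of Plxna2 and Plxna4, had 34.4, 39.1 and 36.2 normalised CPM in iGABA, 52.2, 45.5 and 62.4 in GAD67 and 51.2, 53.9 and 51.1 in MEF libraries. It fell in iGABA against MEF cells by a small step, -0.51 ± 0.0972 (SE; adjusted p = 0.000320) in edgeR, which was lost with library size alone (-0.092, adjusted p = 0.372), and GAD67 against MEF was not called (0.0350, 95% interval -0.17 to 0.24, edgeR adjusted p = 0.738) but passed as higher with library size alone (0.26, adjusted p = 0.0209).

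Sema7a, which acts on axons through integrins as well as Plxnc1, differed most among the ligands between iGABA and GAD67 cells. It had 1.11, 1.43 and 1.16 normalised CPM in iGABA, 81.8, 85.9 and 74.8 in GAD67 and 1.83, 1.81 and 1.96 in MEF libraries. GAD67 libraries stood far above every other library, and iGABA libraries were lowest. For iGABA against GAD67 the edgeR log2 fold change was -6.02 ± 0.103 (SE; adjusted p = 3.53e-14), and for iGABA against MEF it was -0.59 ± 0.147 (SE; adjusted p = 0.00232), a fall that was lost with library size alone (-0.18, adjusted p = 0.313).

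The makeup of the ligand pool was compared on the TPM scale, where each library's values are shares that do not depend on its scaling. Class 3 ligands made up 29.7 ± 0.559% in iGABA, 9.97 ± 0.185% in GAD67 and 65.8 ± 0.238% in MEF libraries of the summed semaphorin TPM (SD, n = 3). In iGABA cells nearly all of that was Sema3f and Sema3b, which together held 29.1 ± 0.602%, while Sema3a, Sema3c, Sema3d and Sema3e held 0.441 ± 0.0616%, against 1.17 ± 0.0690% in GAD67 and 29.4 ± 1.11% in MEF libraries. Class 4 ligands held 38.7 ± 0.0886% in iGABA, 41.3 ± 1.40% in GAD67 and 14.4 ± 0.294% in MEF libraries, and class 6 ligands 19.3 ± 0.793% in iGABA, 36.1 ± 1.69% in GAD67 and 8.77 ± 0.201% in MEF libraries. Class 5 ligands held 12.03 ± 0.203% in iGABA, 4.28 ± 0.0910% in GAD67 and 10.7 ± 0.630% in MEF libraries. Each of these shares had a spread over replicates far smaller than its distance between groups, except class 4 between iGABA and GAD67 and class 5 between iGABA and MEF, where the distance was under 3 percentage points.

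**Figure D3:**
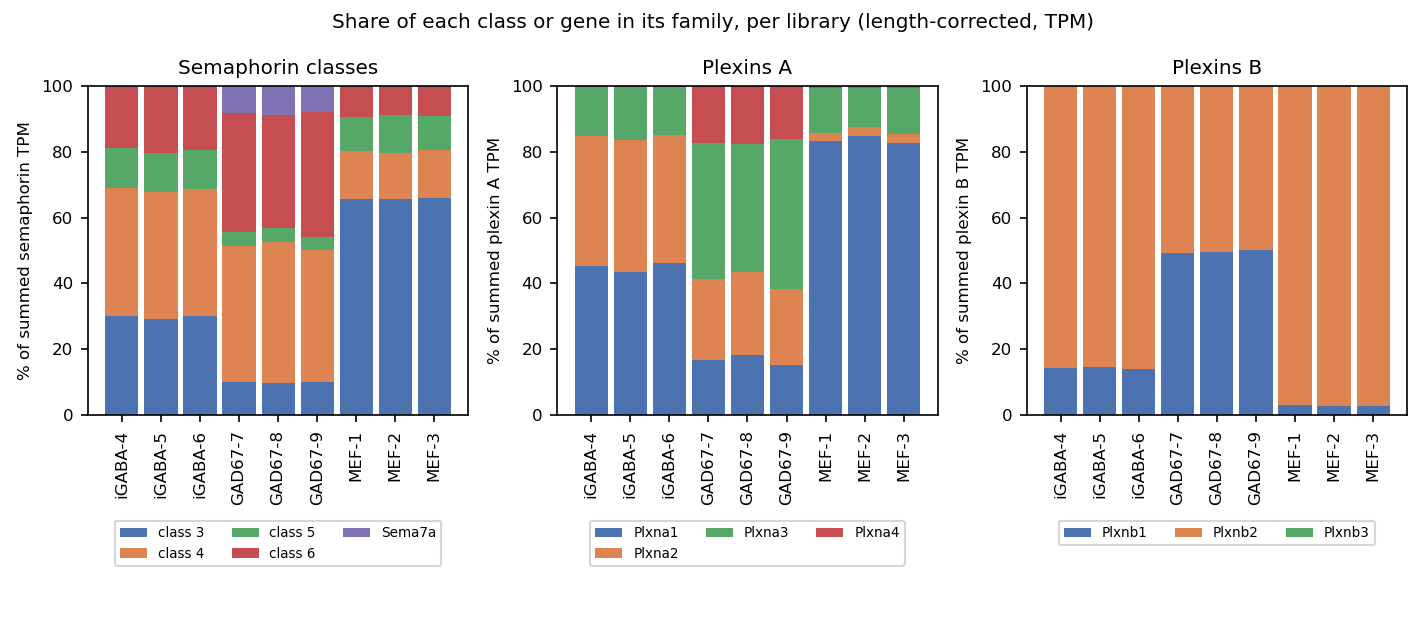
Stacked bars of the share of each semaphorin class (left), plexin A gene (middle) and plexin B gene (right) in the summed TPM of its family, in percent, for each of the 9 libraries. Class 3 takes about 30% in iGABA, 10% in GAD67 and 66% in MEF libraries, Plxna2 rises to about 40% of plexin A TPM in iGABA, and Plxnb1 to about 50% of plexin B TPM in GAD67 libraries.

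Among the receptors, plexins A differed from gene to gene. Of the 4, 2 rose and 2 were not called in iGABA against MEF cells, and 3 were higher and 1 lower in GAD67 than in MEF cells. Higher in these comparisons were 42.1% and 43.1% of all tested genes. Plxna2, a receptor of class 6 ligands and, with neuropilins, of class 3 ligands, had 762, 775 and 771 normalised CPM in iGABA, 615, 578 and 590.2 in GAD67 and 27.3, 32.1 and 26.7 in MEF libraries. Every iGABA library was above every GAD67 library, and both were about 20-fold or more above MEF, with edgeR log2 fold changes of 4.74 ± 0.0793 (SE; adjusted p = 2.16e-14) for iGABA against MEF and 4.37 ± 0.0781 (SE; adjusted p = 1.48e-14) for GAD67 against MEF. The difference between iGABA and GAD67 was 0.37 ± 0.0666 (SE; adjusted p = 0.000188) in edgeR. Plxna3, which passes on Sema3f signals with neuropilin-2, had 151, 163 and 149.6 normalised CPM in iGABA, 537, 462 and 609 in GAD67 and 80.1, 73.6 and 68.2 in MEF libraries. It rose in iGABA cells with 1.06 ± 0.0935 (SE; adjusted p = 2.16e-07) and stayed below GAD67 cells with -1.80 ± 0.0934 (SE; adjusted p = 9.86e-10), both log2 fold changes in edgeR.

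Plxna4, a neuronal receptor for Sema3a and class 6 ligands, did not follow. It had 4.08, 3.20 and 4.85 normalised CPM in iGABA, 321, 298 and 308 in GAD67 and 4.61, 4.77 and 3.53 in MEF libraries, so iGABA and MEF libraries overlapped and GAD67 libraries stood far above both. For iGABA against MEF the log2 fold change was -0.0994 (95% interval -0.42 to 0.22, edgeR adjusted p = 0.543), and for iGABA against GAD67 it was -6.27 ± 0.123 (SE; adjusted p = 8.68e-14), the largest difference of any member between these groups. Plxna1, the plexin A of most tissues, had 522, 500.0 and 544 normalised CPM in iGABA, 251, 249 and 231 in GAD67 and 563, 592 and 463 in MEF libraries. It was not called for iGABA against MEF (-0.0475, 95% interval -0.23 to 0.13, edgeR adjusted p = 0.603). That value was -0.15 without MEF replicate 3, where it passed (adjusted p = 0.0441), and 0.37 with library size alone (adjusted p = 0.00181), so its direction depends on the scaling. GAD67 cells had 2.21-fold less than MEF cells, a log2 fold change of -1.15 ± 0.0837 (SE; adjusted p = 2.22e-08) in edgeR.

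On the TPM scale Plxna1 made up 44.9 ± 1.39% in iGABA, 16.7 ± 1.56% in GAD67 and 83.6 ± 0.987% in MEF libraries of summed plexin A TPM (SD, n = 3). Plxna2 made up 39.6 ± 0.585% in iGABA, 24.4 ± 1.16% in GAD67 and 2.67 ± 0.221% in MEF libraries. Plxna3 made up 15.2 ± 0.868% in iGABA, 41.9 ± 3.44% in GAD67 and 13.2 ± 1.01% in MEF libraries, and Plxna4 0.280 ± 0.0536% in iGABA, 17.0 ± 0.739% in GAD67 and 0.535 ± 0.0244% in MEF libraries. MEF cells thus held 1 dominant plexin A, iGABA cells a pair at similar level, Plxna1 and Plxna2, and GAD67 cells all 4, led by Plxna3.

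Plexins B split by gene. Plxnb2, a receptor of class 4 ligands with roles in dividing neural progenitors, had 625, 648 and 639 normalised CPM in iGABA, 388, 377 and 364 in GAD67 and 613, 669 and 618 in MEF libraries. iGABA and MEF libraries overlapped, with a log2 fold change of 0.00884 (95% interval -0.11 to 0.13, edgeR adjusted p = 0.889), which was 0.43 with library size alone (adjusted p = 7.81e-06), and GAD67 cells were lower than MEF cells with -0.75 ± 0.0563 (SE; adjusted p = 3.00e-08) in edgeR. Plxnb1, the receptor of Sema4d, had 132, 139.6 and 131 normalised CPM in iGABA, 473, 466 and 459.8 in GAD67 and 24.3, 22.8 and 21.2 in MEF libraries. The 3 groups did not overlap, iGABA being in between, and edgeR gave log2 fold changes of 2.56 ± 0.0609 (SE; adjusted p = 4.50e-13) for iGABA against MEF and -1.79 ± 0.0563 (SE; adjusted p = 5.90e-12) for iGABA against GAD67. Plxnb1 made up 14.3 ± 0.301% in iGABA, 49.6 ± 0.441% in GAD67 and 2.78 ± 0.234% in MEF libraries of summed plexin B TPM (SD, n = 3). Plxnb3, known from oligodendrocytes and as a Sema5a receptor, was scarce, with 0.643, 0.979 and 0.876 normalised CPM in iGABA, 0.179, 0.265 and 0.113 in GAD67 and 0.513, 0.757 and 0.634 in MEF libraries and at most 41 counts in a library. It was not called for iGABA against MEF (0.38, 95% interval -0.26 to 1.03, edgeR adjusted p = 0.247), where it passed as higher with library size alone (0.80, adjusted p = 0.0227), and it was higher in iGABA than in GAD67 cells with 2.13 ± 0.351 (SE; adjusted p = 9.11e-05) in edgeR.

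Plxnc1, the plexin that binds Sema7a, rose in iGABA cells. It had 57.6, 64.6 and 50.4 normalised CPM in iGABA, 89.4, 88.1 and 98.1 in GAD67 and 24.2, 24.1 and 23.1 in MEF libraries, with the 3 groups apart and edgeR log2 fold changes of 1.28 ± 0.0854 (SE; adjusted p = 1.27e-08) for iGABA against MEF and 1.95 ± 0.0857 (SE; adjusted p = 1.05e-10) for GAD67 against MEF. Plxnd1, the Sema3e receptor best known in blood vessels, had 40.2, 37.1 and 42.8 normalised CPM in iGABA, 24.9, 29.6 and 11.97 in GAD67 and 66.2, 70.6 and 64.3 in MEF libraries. It fell in iGABA cells with -0.74 ± 0.211 (SE; adjusted p = 0.00565) in edgeR, a call lost with library size alone (-0.33, adjusted p = 0.185). GAD67 replicate 9 stood below the other 2 GAD67 libraries, and without it the edgeR log2 fold change for GAD67 against MEF was -1.28 in place of -1.59. Its endothelial markers were the highest of the GAD67 libraries, and the part of endothelial RNA in Plxnd1 was not tested.

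Both neuropilins fell, unequally. Nrp1, co-receptor of Sema3a and of VEGF, had 42.7, 42.4 and 46.3 normalised CPM in iGABA, 46.0, 40.8 and 48.0 in GAD67 and 158, 165 and 169 in MEF libraries. iGABA and GAD67 libraries overlapped, and both lay below every MEF library, with a log2 fold change of -1.91 ± 0.0678 (SE; adjusted p = 2.06e-11) for iGABA against MEF in edgeR and of -0.0375 for iGABA against GAD67 (95% interval -0.18 to 0.11, edgeR adjusted p = 0.621). With library size alone the value for iGABA against GAD67 was 0.16 and passed (adjusted p = 0.0407). Nrp2, co-receptor of Sema3f and Sema3c, had 19.1, 17.9 and 19.7 normalised CPM in iGABA, 57.0, 51.5 and 72.9 in GAD67 and 363, 395 and 372 in MEF libraries. The 3 groups did not overlap and iGABA cells were lowest, with edgeR log2 fold changes of -4.32 ± 0.115 (SE; adjusted p = 1.23e-12) against MEF and -1.68 ± 0.108 (SE; adjusted p = 8.77e-09) against GAD67. The ratio of Nrp1 to Nrp2 on the TPM scale was 3.73 ± 0.125 in iGABA, 1.21 ± 0.132 in GAD67 and 0.701 ± 0.0306 in MEF libraries (SD, n = 3), so Nrp2 was the more abundant in MEF and Nrp1 in iGABA cells. Set against plexins A, the summed TPM of the neuropilins was 0.0730 ± 0.00253 times that of the plexins A in iGABA, 0.0861 ± 0.00621 in GAD67 and 0.952 ± 0.121 in MEF libraries.

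**Figure D4:**
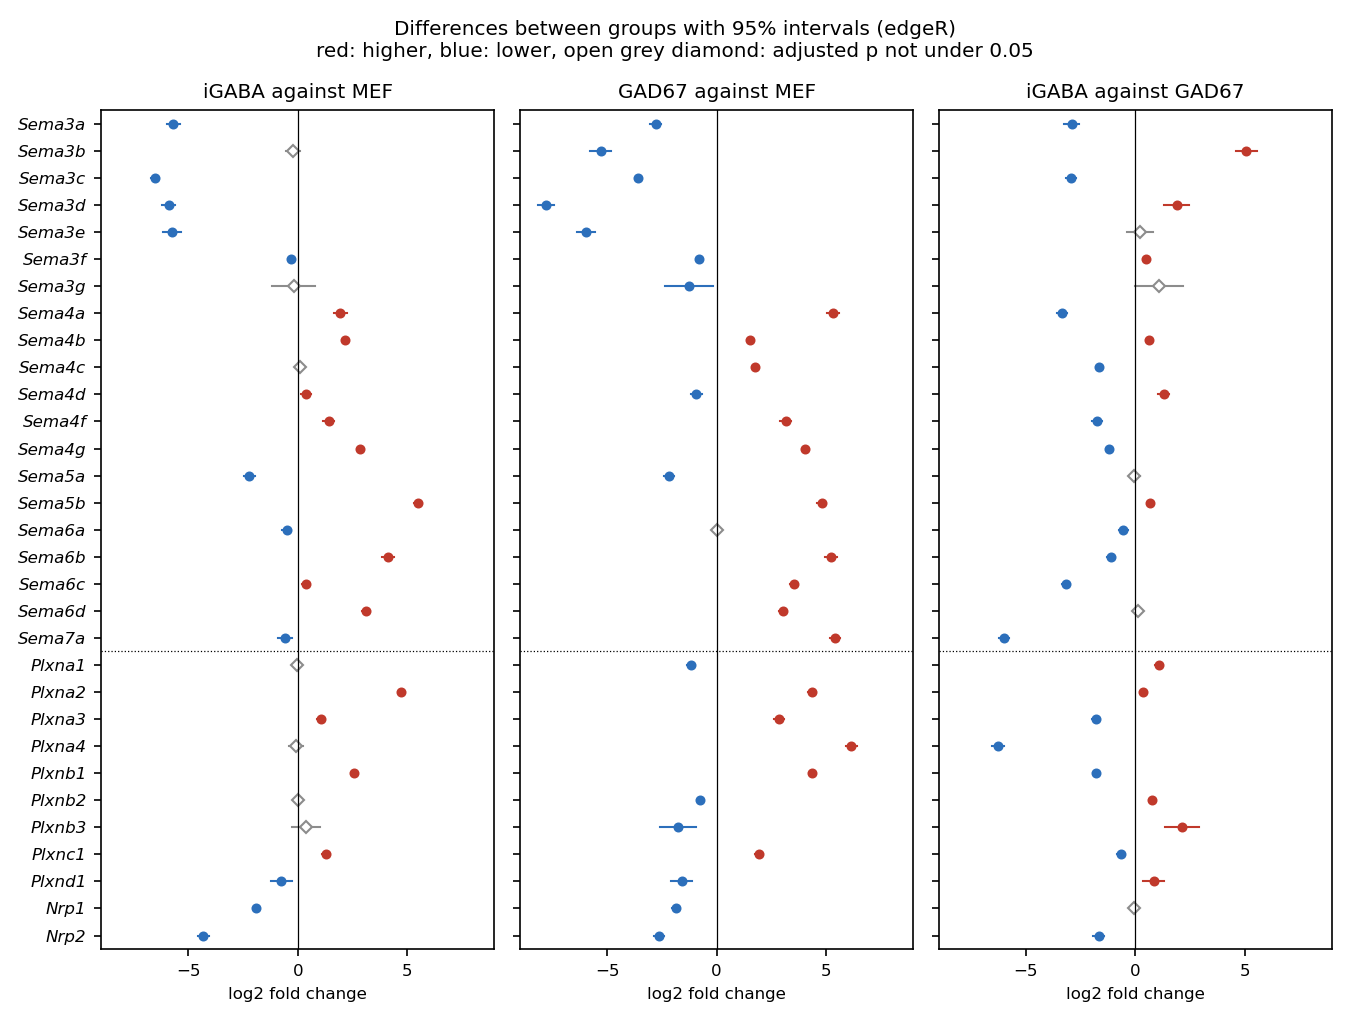
Log2 fold change with its 95% interval in edgeR (x axis) for each member (y axis, ligands above the dotted line and receptors below) in iGABA against MEF, GAD67 against MEF and iGABA against GAD67, with filled red points higher, filled blue points lower and open grey diamonds not called. In the right panel Sema7a and Plxna4 lie furthest left, near -6, and Sema3b furthest right, near 5.

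Ligands and receptors known to work together were set side by side as TPM (SD, n = 3). This scale serves to compare genes within a group, since between groups it can differ from the tested values. For example, mean TPM of Plxnb2, Sema4c and Sema3f was higher in iGABA than in MEF libraries. The test called neither Plxnb2 nor Sema4c and called Sema3f lower. In TPM the iGABA and MEF libraries overlapped for Sema3f. Sema7a averaged 1.22 ± 0.158 in iGABA, 81.3 ± 5.43 in GAD67 and 1.36 ± 0.0511 in MEF libraries, and its receptor Plxnc1 26.7 ± 2.99 in iGABA, 43.3 ± 2.62 in GAD67 and 8.15 ± 0.452 in MEF libraries. In iGABA cells the receptor was thus present with its ligand near 1 TPM. Sema3e averaged 0.385 ± 0.0649 in iGABA, 0.338 ± 0.153 in GAD67 and 15.7 ± 0.557 in MEF libraries, and Plxnd1 18.2 ± 1.52 in iGABA, 10.2 ± 4.19 in GAD67 and 22.4 ± 1.28 in MEF libraries. Sema4d averaged 14.2 ± 0.187 in iGABA, 5.84 ± 1.12 in GAD67 and 8.06 ± 0.1997 in MEF libraries, and Plxnb1 49.0 ± 1.09 in iGABA, 173 ± 2.59 in GAD67 and 6.13 ± 0.617 in MEF libraries. Sema4c averaged 37.1 ± 2.07 in iGABA, 119 ± 2.60 in GAD67 and 25.5 ± 1.499 in MEF libraries, and Plxnb2, the most abundant member in iGABA and MEF cells, 292 ± 4.56 in iGABA, 175 ± 5.57 in GAD67 and 214 ± 9.84 in MEF libraries. Sema3f was the most abundant ligand in iGABA and MEF cells at 116 ± 4.51 in iGABA, 84.8 ± 2.84 in GAD67 and 107 ± 8.12 in MEF libraries, and its co-receptor Nrp2 stood at 6.48 ± 0.392 in iGABA, 21.1 ± 3.91 in GAD67 and 95.4 ± 3.55 in MEF libraries. Sema6c was the most abundant member of all in GAD67 cells, at 228 ± 17.6 TPM, followed by Plxna3 at 226 ± 31.5, a difference within the spread over replicates.

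Summed over genes, the ratio of receptor to ligand TPM was 1.70 ± 0.00761 in iGABA, 1.01 ± 0.0549 in GAD67 and 1.62 ± 0.0581 in MEF libraries (SD, n = 3). The ligands summed to 492 ± 6.54 in iGABA, 977 ± 26.3 in GAD67 and 362 ± 13.2 in MEF libraries, and the receptors to 837 ± 12.9 in iGABA, 985 ± 37.6 in GAD67 and 586 ± 37.1 in MEF libraries. Such sums depend on scaling. As TMM-normalised counts per kilobase the ligands averaged 151 in iGABA, 295 in GAD67 and 150.1 in MEF libraries, so that iGABA and MEF cells stood at nearly the same summed ligand level. The receptors averaged 257 in iGABA, 297 in GAD67 and 243 in MEF libraries on that scale, so their groups also lay closer together than in TPM.

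Genes that work with this system outside the 2 families were counted in 5 lists, and the lists were chosen with earlier results of these data known. Levels in them are means of normalised CPM ± SD over 3 libraries, and the median log2 fold change of a list stands beside that of all tested genes, 0.0471 for iGABA against MEF, 0.0016 for GAD67 against MEF and 0.0221 for iGABA against GAD67. Over the 52 genes tested, 47 were called for iGABA against MEF, 48 for GAD67 against MEF and 48 for iGABA against GAD67, where 81.9%, 86.9% and 80.6% of all tested genes were, so the number called in a list says little. Of 14 genes for other receptors and co-receptors of semaphorins, 13 were tested and Timd2 had too few counts. Of these 13, 3 rose and 9 fell in iGABA against MEF cells, at a median of -2.10 on the log2 scale, and 4 were higher and 8 lower in GAD67 against MEF cells, at -3.28. Between iGABA and GAD67 cells 5 were higher and 6 lower in iGABA, at -1.55. The adhesion molecule Cntn2, which joins L1 family receptors for Sema3a, averaged 1307 ± 146 in iGABA, 149 ± 0.690 in GAD67 and 4.13 ± 0.288 in MEF libraries in CPM (SD, n = 3). The adhesion molecules Nrcam and Chl1, which form complexes with neuropilins, stood far below their GAD67 level in iGABA cells. Nrcam averaged 7.06 ± 0.508 in iGABA, 161 ± 14.2 in GAD67 and 9.96 ± 1.02 in MEF libraries, and Chl1 11.3 ± 2.32 in iGABA, 294 ± 6.11 in GAD67 and 12.4 ± 1.16 in MEF libraries. The receptor kinase genes Met and Erbb2, whose products associate with plexins B, were lower in iGABA and in GAD67 than in MEF cells. Met averaged 0.928 ± 0.0117 in iGABA, 8.82 ± 1.91 in GAD67 and 85.6 ± 2.83 in MEF libraries, and Erbb2 25.7 ± 1.29 in iGABA, 0.595 ± 0.0645 in GAD67 and 62.4 ± 4.19 in MEF libraries. L1cam and Mst1r of the same list rose in iGABA against MEF cells, as Cntn2 did. L1cam averaged 94.1 ± 9.79 in iGABA, 304 ± 16.2 in GAD67 and 10.2 ± 0.968 in MEF libraries. Mst1r averaged 16.8 ± 1.77 in iGABA, 1.52 ± 0.472 in GAD67 and 9.67 ± 1.17 in MEF libraries. Cd72, a Sema4d receptor of immune cells, averaged 0.606 ± 0.194 in iGABA, 0.158 ± 0.147 in GAD67 and 10.9 ± 1.26 in MEF libraries. Trem2 and Tyrobp are macrophage genes whose products associate with Plxna1. Trem2 had no count in iGABA and averaged 0.116 ± 0.101 in GAD67 and 17.3 ± 0.789 in MEF libraries, and Tyrobp averaged 0.0576 ± 0.0631 in iGABA, 0.163 ± 0.0800 in GAD67 and 21.6 ± 1.57 in MEF libraries. Both moved with the macrophage markers given above, and the part of macrophage RNA in these values was not tested.

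Of 5 genes of the VEGF family, some of which bind neuropilins, 1 rose and 3 fell in iGABA and all 5 were lower in GAD67 than in MEF cells, with median log2 fold changes of -3.71 for iGABA and -2.09 for GAD67. Between iGABA and GAD67 cells 3 were higher and 2 lower in iGABA, at 1.27. Vegfa averaged 381 ± 11.1 in iGABA, 76.9 ± 21.2 in GAD67 and 233 ± 22.2 in MEF libraries (SD, n = 3). Vegfc averaged 0.142 ± 0.0643 in iGABA, 4.42 ± 0.619 in GAD67 and 26.5 ± 1.45 in MEF libraries, and Vegfd 0.451 ± 0.158 in iGABA, 0.0538 ± 0.0468 in GAD67 and 79.99 ± 1.76 in MEF libraries. The placental growth factor gene Pgf averaged 0.890 ± 0.173 in iGABA, 2.72 ± 0.674 in GAD67 and 11.6 ± 0.534 in MEF libraries. Vegfa was thus the only one of the 5 that rose in iGABA cells, with a log2 fold change of 0.71 ± 0.143 (SE; edgeR adjusted p = 0.000503).

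Of 8 genes for CRMP and MICAL proteins, which carry semaphorin signals to microtubules and actin, 5 rose and 2 fell in iGABA and 6 were higher and 2 lower in GAD67 than in MEF cells, with median log2 fold changes of 1.78 for iGABA and 2.53 for GAD67. Between iGABA and GAD67 cells 2 were higher and 6 lower in iGABA, at -1.67. Dpysl5 averaged 371 ± 8.89 in iGABA, 1209 ± 55.5 in GAD67 and 4.99 ± 0.446 in MEF libraries (SD, n = 3), and Crmp1 102 ± 5.37 in iGABA, 1286 ± 61.7 in GAD67 and 7.59 ± 0.467 in MEF libraries. Both rose in iGABA cells and stayed below GAD67 cells. Dpysl4 averaged 69.6 ± 1.17 in iGABA, 216 ± 21.5 in GAD67 and 7.18 ± 0.695 in MEF libraries. Dpysl3 averaged 430.4 ± 25.7 in iGABA, 2668 ± 46.8 in GAD67 and 435 ± 12.2 in MEF libraries, and was not called for iGABA against MEF. Of the MICAL oxidases, which disassemble actin, Mical3 averaged 164 ± 11.5 in iGABA, 114 ± 6.01 in GAD67 and 20.8 ± 3.19 in MEF libraries. Mical1 averaged 11.1 ± 2.60 in iGABA, 48.9 ± 3.45 in GAD67 and 74.2 ± 3.08 in MEF libraries, and Mical2 38.2 ± 3.49 in iGABA, 4.81 ± 3.34 in GAD67 and 122 ± 4.61 in MEF libraries.

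Of 19 genes for GTPases, exchange factors and kinases of the pathway, 9 rose and 9 fell in iGABA and 9 were higher and 7 lower in GAD67 than in MEF cells, at medians of -0.18 for iGABA and 0.41 for GAD67. Between iGABA and GAD67 cells 6 were higher and 11 lower in iGABA, at -0.39. Cdk5r1, which encodes the neuronal activator of the Sema3a kinase Cdk5, averaged 117 ± 4.34 in iGABA, 1185 ± 46.1 in GAD67 and 2.75 ± 0.221 in MEF libraries (SD, n = 3). The kinase gene Pak1 averaged 173 ± 8.73 in iGABA, 236 ± 7.25 in GAD67 and 34.8 ± 1.01 in MEF libraries. Rras, the GTPase that plexins inactivate, averaged 35.6 ± 0.864 in iGABA, 0.592 ± 0.147 in GAD67 and 121 ± 9.01 in MEF libraries. Farp1, which encodes an exchange factor that binds plexins A, averaged 55.4 ± 1.98 in iGABA, 274 ± 30.5 in GAD67 and 386 ± 9.89 in MEF libraries, so iGABA cells were lowest. The kinase gene Fes averaged 5.48 ± 0.837 in iGABA, 1.18 ± 0.232 in GAD67 and 10.9 ± 1.19 in MEF libraries.

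Of 7 genes for proteases that cleave semaphorins or their precursors, 6 fell in iGABA and 1 was not called, and 6 were lower and 1, Pcsk7, higher in GAD67 than in MEF cells, at medians of -1.42 for iGABA and -2.41 for GAD67. Between iGABA and GAD67 cells 3 were higher and 4 lower in iGABA, at -0.48. Furin, the convertase that processes class 3 ligands, averaged 85.6 ± 0.685 in iGABA, 56.6 ± 7.16 in GAD67 and 229.5 ± 9.20 in MEF libraries (SD, n = 3). The related convertases fell further, with Pcsk5 at 1.97 ± 0.133 in iGABA, 3.26 ± 0.622 in GAD67 and 54.5 ± 3.10 in MEF libraries, and Pcsk6 at 0.813 ± 0.260 in iGABA, 2.12 ± 1.40 in GAD67 and 72.2 ± 3.53 in MEF libraries. Pcsk7 averaged 20.3 ± 2.32 in iGABA, 62.2 ± 3.37 in GAD67 and 22.2 ± 1.85 in MEF libraries. Mmp14, which can release the outer part of Sema4d, averaged 185 ± 0.740 in iGABA, 43.3 ± 1.84 in GAD67 and 1140.1 ± 45.8 in MEF libraries, and the shedding protease gene Adam17 55.1 ± 0.635 in iGABA, 24.5 ± 4.58 in GAD67 and 131 ± 0.854 in MEF libraries.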

How the data were processed

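RNA sequencing covered 9 samples in 3 groups of 3 (iGABA, GAD67 and MEF), grouped by their titles. The authors deposited whole-number read counts per gene with exon positions and gene lengths. Per the submitters' processing notes, BWA 0.7.2, featureCounts and DESeq 1.10.1 with mm10 were used. Their role, the annotation release and the strand setting were not given in the sources used here, so for overlapping genes reads of both strands cannot be told apart. Per the labels' protocols, libraries were made by the dUTP method. Symbols from GENCODE vM21 matched 35449 of 37224 genes (95.2%), and no line named no gene. Start sequences came from RefSeq (GRCm38.p6) and matched 26 of 31 members.

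Counts were fitted in R 4.3.3 with edgeR 4.0.16, using filterByExpr (minimum count 10, minimum total 15), TMM scaling and the quasi-likelihood test on all 9 libraries, with Benjamini-Hochberg adjustment over the 18085 genes left. Every adjusted p comes from this fit unless named otherwise. The SE of a log2 fold change is its size divided by the square root of F, and 95% intervals use it. TPM were computed from counts and table lengths. The fit was tested on simulated counts of 18085 genes for iGABA against MEF, of which only 200 were changed. There it recovered 100% of 4-fold and 99% of 2-fold changes and called 0.0688% of unchanged genes. The changed genes were drawn only from those that averaged at least 100 counts per library. In the deposited data 81.9% of tested genes were called for iGABA against MEF, and these rates were not tested with so many changes. Recovery at the low counts of members such as Sema3g and Plxnb3 was therefore not tested, and false calls there were not counted separately. At 27501521 to 38975523 counts per library, 3 counts, which a count of 0 allows, are 0.077 to 0.109 CPM, a limit that covers counting error only. Alternatives were DESeq2 1.42.0, library size alone, RLE factors, no filter, only the groups compared, and leaving out each library. All members are named, those at least 4-fold changed in some comparison with every library's value, and the 4 largest called changes per pathway list and comparison. L1cam and Mst1r are named besides. The gene families were taken up, and the lists and markers drawn up, with earlier results of these data known, while within the families members were taken by symbol and protein-coding type alone.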

Additional observations from a re-analysis of the deposited data

How the results depend on the processing

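No paired analysis was possible because the replicate numbers run from 1 to 9 and no 2 groups share one. Of 336 recomputed counts of calls (24 counts under 14 alternatives), 335 stayed within 1.5 times the reported count. The exception was the number of members lower in iGABA against MEF, 7 with library size alone in place of 11, where that scaling moved the median of all genes up by 0.42. Of the 1302 recomputed values of single members, 1260 kept their direction and their side of the threshold, 20 changed sign, and of the others 9 lost and 13 gained a call. Among those that changed sign, Plxna1 for iGABA against MEF and Nrp1 for iGABA against GAD67 gained a call with library size alone, and Sema3f for iGABA against MEF lost one. Every change of sign was of a value that was not called as reported, except Sema3f.
For iGABA against MEF with library size alone, the log2 fold changes with the other sign were 0.19 for Sema3b, 0.0897 for Sema3f, 0.24 for Sema3g, 0.37 for Plxna1 and 0.32 for Plxna4. For Plxnb2, RLE factors gave -0.0283 and DESeq2 -0.0284. When single libraries were left out, Sema3g ranged from -0.37 to 0.0138, Plxna1 from -0.15 to 0.0197, Plxna4 from -0.24 to 0.0528 and Plxnb2 from -0.0169 to 0.0440, and Sema6a for GAD67 against MEF from -0.0763 to 0.14. For iGABA against GAD67, library size alone gave 0.15 for Sema5a and 0.16 for Nrp1, and leaving out single libraries gave -0.11 to 0.41 for Sema3e, -0.17 to 0.0555 for Sema5a and -0.10 to 7.55e-05 for Nrp1. The cause was not tested. Depth limits Sema3g and Plxnb3, with at most 47 and 41 counts in a library, and Sema3d and Sema3e in iGABA and GAD67 libraries.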
